A study of Rattus norvegicus with 56 samples.

Results

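The transcripts described here are the nuclear-encoded subunits of the oxidative phosphorylation complexes in microdissected tubules of rat kidney. Members were 88 of the 32883 genes in the expression tables, chosen by gene symbol in the 30 min table and carried to the 3 h table by Ensembl identifier. The rule used no measured value, though it was chosen with earlier results of these data known. The members comprised 37 genes of complex I, 4 of complex II, 9 of complex III, 22 of complex IV and 16 of complex V. They carried 85 distinct symbols, since Ndufv3, Uqcrb and Cox6b1 each had more than 1 identifier.

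The inner mitochondrial membrane carries a chain of enzymes that passes electrons from NADH (complex I) and succinate (complex II) through ubiquinone, complex III and cytochrome c to oxygen at complex IV. Complexes I, III and IV pump protons, and complex V, the ATP synthase, uses the gradient to make ATP. Most subunits are encoded in the nucleus and a smaller set in mitochondrial DNA, so complexes I, III, IV and V are built from both genomes. In the kidney the thick ascending limb, which reabsorbs sodium chloride against a gradient with the Na-K-ATPase, is among the segments richest in mitochondria.

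Male Sprague-Dawley rats weighing 120 to 160 g had either unilateral ureteral obstruction (UUO), in which the left ureter was tied off with silk close to the renal pelvis, or sham surgery in which it was not tied. Cortical collecting duct (CCD) and cortical thick ascending limb (cTAL) were dissected by hand 30 min or 3 h later, and their RNA was sequenced. Each combination of segment, arm and time had 4 replicates with a number each. A number stood for 2 libraries in CCD and 1 in cTAL, which gave 48 libraries of 56 samples. The other 8, from whole kidney, were not analysed here. Expression was given as TPM, a read-based abundance scaled per transcript length and to a fixed total, so that a value is a share of the RNA in a library and carries no sequencing depth. Nothing in the labels says that the CCD and cTAL libraries with 1 number came from 1 rat; same-numbered libraries of an arm and time were taken as 1 animal. The 30 min and 3 h tables were made separately, and levels were not compared between them.

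A library held between 8744 and 11916 genes at 1 TPM or more at 30 min and between 9585 and 10750 at 3 h. The labels matched the segments in sham animals: all 8 principal cell and all 8 intercalated cell markers were higher in CCD, and all 5 thick limb markers were lower, at both times. Library 2 of CCD UUO number 2 at 30 min stood apart, with the fewest genes (8744), 14.3% of its TPM in the members, and a correlation of 0.904 with its partner library over log2 values, against 0.936 to 0.980 for the others. At 3 h, 3 CCD libraries held more than 5000 TPM of Umod, the thick limb's uromodulin gene (6941 and 7957 TPM in sham numbers 1 and 3 and 18235 TPM in UUO number 4). The UUO results in CCD and the 3 h segment counts are also given without them.

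In sham tubules the subunits were among the abundant transcripts. Together they made up 8.999% ± 0.43 (SD, n = 4) of all TPM in CCD and 10.9% ± 0.37 in cTAL at 30 min. In the 3 h table they made up 12.1% ± 0.19 in CCD and 15.7% ± 1.43 in cTAL. The highest in sham CCD at 30 min were Cox8a, the ubiquitous form of the smallest complex IV subunit, at 6292 ± 167 TPM, the ATP synthase beta subunit gene Atp5f1b at 5247 ± 321 TPM and Cox6c at 3687 ± 343 TPM. In cTAL the same 3 led, with Atp5f1b at 5962 ± 491 TPM, Cox8a at 5706 ± 677 TPM and Cox6c at 5560 ± 209 TPM, and the levels of Atp5f1b and Cox8a there differed by less than their spread.

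Complex IV genes with forms specific to tissues were low or at 0. Cox6a2 and Cox8b, the heart and skeletal muscle forms, were each listed at 0 in 15 of the 16 replicates at 30 min, and Cox7b2 was listed at 0 in every one of the 48 libraries. Cox4i2, the alternative form of subunit 4 known from lung, did not pass 4.37 TPM in any 30 min replicate, where its counterpart Cox4i1 stood at 509 ± 20.3 TPM in sham CCD. Ndufa4, a complex IV subunit named for complex I, reached 1257 to 1704 TPM in sham CCD, and its relative Ndufa4l2, known as a hypoxia-induced gene, did not pass 1.27 TPM at 30 min. At 3 h single cTAL replicates were higher, with 24.6 TPM of Cox4i2 and 17.4 TPM of Ndufa4l2 in sham 1 and 11.8 TPM of Cox6a2 in UUO 1. Cox7a1, the muscle form of subunit 7a, ranged from 0 to 16.3 TPM over the 30 min replicates.

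A filter of 1 TPM in at least 4 replicates kept 77 to 80 members in the comparisons of arms or segments. Cox6a2, Cox6c-ps1, Cox7b2, Cox8b, Cox8c, Ndufa10l1 and Ndufs6 passed in none of these 6 comparisons, and Cox4i2, Cox6b2, Ndufa1, Ndufa4l2 and the second Ndufv3 identifier (ENSRNOG00000027593) passed in some. Ndufs6 codes for a complex I subunit, yet it did not pass 2.49 TPM in any replicate at 30 min. Several names also moved between the tables. The identifier called Ndufa1 at 30 min (ENSRNOG00000040005) ranged from 0 to 196 TPM there, while ENSRNOG00000052226, called LOC108348144 at 30 min and Ndufa1 at 3 h, stood at 4299 ± 657 TPM in sham CCD. Cox7a1 and LOC687508 exchanged names in the same way. Values of these genes and of the repeated symbols are uncertain, since reads of near-identical copies could be split.

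Promoter sequences are shown because nuclear subunit genes are known to share binding motifs for the factors NRF1, ETS family members (such as GABP) and YY1, and the genes below are ones that the segment results turn on. RefSeq on the GRCr8 build gave a promoter for 74 of the 85 symbols. The letters searched on both strands were GCGCATGCG for NRF1, its shorter form TGCGCA, which can overlap it, CCGGAAG for ETS and AAGATGG for YY1, within 250 bases before the annotated start. GCGCATGCG stood in 6 of the 74 (8.11%), against 1.49% of all 27457 rat promoters of that length. TGCGCA stood in 19 (25.7% against 6.57%), CCGGAAG also in 19 (25.7% against 7.74%), and AAGATGG in 4 (5.41% against 4.63%). These matches are letters in a window and not measured binding.

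The first set holds the NRF1 letters. Atp5me (chr14:1464610-1464859, plus strand), Atp5mc2 (chr7:135678219-135678468, minus strand) and Uqcrc1 (chr8:118467973-118468222, plus strand) were lower in CCD than cTAL at both times, whereas Atp5po (chr11:44657484-44657733, minus strand) was not called at either. Each line runs 5′ to 3′ along the gene's strand and ends at the base before the start. Capitals mark the matches to the NRF1, ETS and YY1 letters or their reverse complements, and not those to the shorter form.
Atp5me: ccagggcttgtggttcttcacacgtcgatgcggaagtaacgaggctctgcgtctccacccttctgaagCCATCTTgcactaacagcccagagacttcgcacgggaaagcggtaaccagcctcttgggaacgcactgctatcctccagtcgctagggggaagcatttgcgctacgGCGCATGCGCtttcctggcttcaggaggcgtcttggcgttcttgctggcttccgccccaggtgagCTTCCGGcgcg
Atp5mc2: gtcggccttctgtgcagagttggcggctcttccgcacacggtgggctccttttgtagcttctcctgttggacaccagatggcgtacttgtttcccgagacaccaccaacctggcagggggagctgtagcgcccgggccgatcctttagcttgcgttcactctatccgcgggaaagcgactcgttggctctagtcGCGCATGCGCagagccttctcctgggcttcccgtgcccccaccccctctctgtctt
Uqcrc1: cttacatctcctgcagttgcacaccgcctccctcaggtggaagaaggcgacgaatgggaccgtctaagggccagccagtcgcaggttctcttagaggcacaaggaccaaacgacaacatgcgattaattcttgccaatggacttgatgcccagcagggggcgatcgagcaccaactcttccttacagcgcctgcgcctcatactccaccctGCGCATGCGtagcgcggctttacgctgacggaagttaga
Atp5po: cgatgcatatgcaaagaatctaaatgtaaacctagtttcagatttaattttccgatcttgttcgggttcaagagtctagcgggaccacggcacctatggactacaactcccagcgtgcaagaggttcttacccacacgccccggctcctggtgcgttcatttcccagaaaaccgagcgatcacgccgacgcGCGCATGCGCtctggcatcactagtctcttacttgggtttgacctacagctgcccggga

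The second set holds the ETS letters, from genes with clear segment differences at both times. It comprises Cox5b (chr9:46417587-46417836, plus strand), Ndufs8 (chr1:210573699-210573948, minus strand) and Uqcrc2 (chr1:184598990-184599239, plus strand), with the match starting at position -14 from the start in Cox5b and at -12 in Ndufs8.
Cox5b: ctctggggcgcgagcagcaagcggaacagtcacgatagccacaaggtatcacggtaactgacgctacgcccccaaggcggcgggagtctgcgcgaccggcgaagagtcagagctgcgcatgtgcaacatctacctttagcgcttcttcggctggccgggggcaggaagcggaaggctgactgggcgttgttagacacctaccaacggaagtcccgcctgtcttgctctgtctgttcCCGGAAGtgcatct
Ndufs8: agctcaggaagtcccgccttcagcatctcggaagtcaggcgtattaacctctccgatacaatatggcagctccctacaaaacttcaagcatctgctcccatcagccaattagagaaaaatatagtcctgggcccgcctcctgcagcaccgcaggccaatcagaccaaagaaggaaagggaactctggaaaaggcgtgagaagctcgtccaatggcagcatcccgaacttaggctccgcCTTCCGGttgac
Uqcrc2: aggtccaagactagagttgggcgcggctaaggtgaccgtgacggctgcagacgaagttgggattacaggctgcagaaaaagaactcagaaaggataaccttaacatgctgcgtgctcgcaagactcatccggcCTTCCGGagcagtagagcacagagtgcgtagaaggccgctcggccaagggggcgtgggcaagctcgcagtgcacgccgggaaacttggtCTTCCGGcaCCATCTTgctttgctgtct
Among the matched genes, CCGGAAG stood in 10 of the 33 that were lower in CCD at both times and in 9 of the other 41. GCGCATGCG stood in 4 of the 33 and in 2 of the 41. The letters were thus present on both sides of the segment result.

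The comparison of segments in sham animals asked how the subunit transcripts differed between CCD and cTAL without obstruction. At 30 min 43 of the 77 members tested were lower in CCD (55.8%, against 13.3% of all genes tested) and 4 were higher (against 41.8%), by limma on within-animal differences at an adjusted p under 0.05. The median member difference, CCD minus cTAL on the log2(TPM + 1) scale, was -0.23, beside 0.29 over all genes tested. At 3 h 44 of 80 were lower (55.0%, against 10.4% of all genes) and 0 were higher (against 27.9%), with a member median of -0.33 beside 0.30. Each of the 43 at 30 min was lower in CCD in 4 of 4 animals. The 43 were picked by calls on these same differences, so that adds no separate support. Its share over all called genes was not computed. Another scaling, median-of-ratios, moved the all-gene median to 0.01 at 30 min and 0.05 at 3 h and made the calls over all genes nearly even (3134 higher and 2696 lower, then 1643 and 1686, in place of 4835 and 1543, then 2914 and 1088). Under it the member median was -0.56 and -0.62, and 60 and 63 members were lower.

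**Figure D1:**
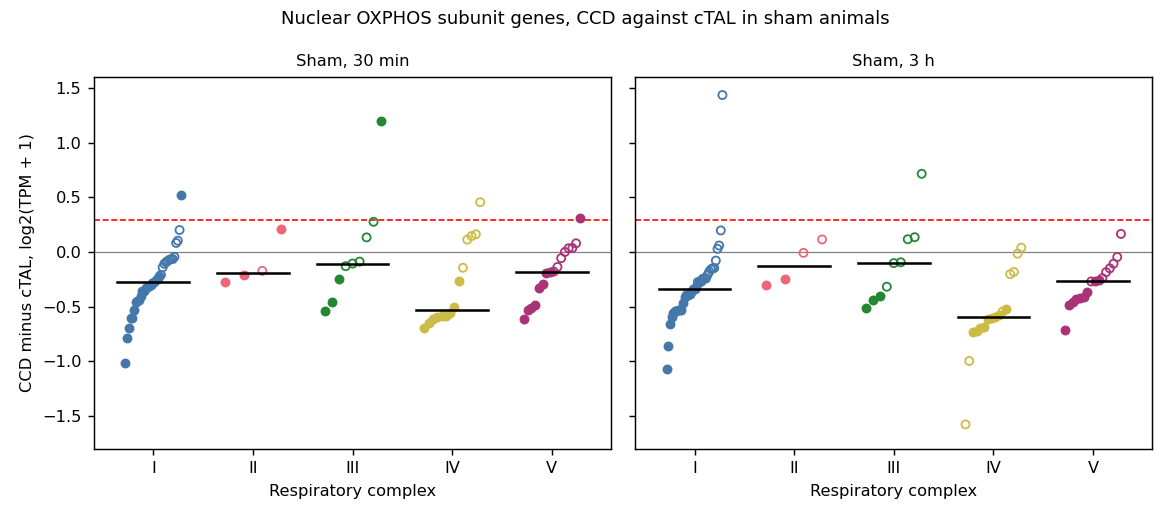
Difference between CCD and cTAL in sham animals (vertical axis, CCD minus cTAL of log2(TPM + 1)) for every member tested, sorted within complexes I to V, at 30 min and 3 h. Filled points passed limma's adjusted p of 0.05, open points did not, black bars are complex medians and the red dashed line is the median of all genes tested; most filled points lie below 0, and the complex IV bar is the lowest at -0.53 and -0.60.

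Complex IV had the lowest median of the 5 complexes. Of its 14 members tested at 30 min, 9 were lower in CCD and 0 higher, with a median of -0.53. At 3 h 9 of 16 were lower, with a median of -0.60. Complex I followed with 21 of 34 lower at 30 min (median -0.28) and 21 of 35 at 3 h (median -0.33). Complex V had 8 of 16 and then 9 of 16 lower (medians -0.18 and -0.27), complex III 3 of 9 each time (medians -0.11 and -0.10) and complex II 2 of 4 each time (medians -0.19 and -0.13). These differences between complexes were not tested.

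Complex I oxidises NADH, and its core subunits, conserved from bacteria, carry the flavin and the iron-sulfur clusters. Among its called members the largest difference belonged to Ndufb9 (ENSRNOG00000009364), an accessory subunit of the membrane arm. In sham animals 1 to 4 at 30 min the CCD values were 1220.3, 1095, 1181 and 1072 TPM, and the cTAL values were 2106, 2543, 2228 and 2390 TPM. The segments did not overlap, and cTAL held about double the CCD level (log2 difference -1.02, SE 0.09, limma adjusted p = 0.000122, n = 4). At 3 h CCD held 1592, 1238, 1612 and 1235 TPM and cTAL 3310, 2728, 2953 and 2826 TPM (log2 difference -1.07, SE 0.07, limma adjusted p = 0.000197). The smallest cTAL value was again above the largest CCD value.

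Ndufs8 (ENSRNOG00000017446), a core subunit that holds a pair of iron-sulfur clusters next to the quinone site, came next. At 30 min its CCD values were 755, 674, 654 and 677 TPM and its cTAL values 1125, 1282, 1103 and 1236 TPM, again with no overlap. The log2 difference was -0.78 (SE 0.08, limma adjusted p = 0.000232) at 30 min and -0.86 (SE 0.07, adjusted p = 0.000278) at 3 h. Of the 7 nuclear-encoded core subunits, 6 were lower at 30 min (median -0.45) and 5 at 3 h (median -0.54), against 15 of 27 (median -0.23) and 16 of 28 (median -0.30) among the accessory ones. Ndufv1, the flavin and NADH-binding subunit, was lower at both times (-0.45 and -0.56, limma adjusted p = 0.00177 and 0.00475). Ndufs1, its iron-sulfur partner, was lower at 30 min (277 ± 49.8 TPM in CCD against 444 ± 81.8 TPM in cTAL, -0.70, limma adjusted p = 0.00156) but was not called at 3 h (-0.21, adjusted p = 0.105). Ndufs7 was the core subunit called at neither time, at -0.09 and then -0.24 (limma adjusted p = 0.0512 at 3 h).

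The complex I member called higher in CCD was the second Ndufv3 identifier, a low transcript. Its CCD values were 28.7, 6.74, 15.8 and 8.82 TPM, and its cTAL values 11.6, 5.95, 8.59 and 5.97 TPM. The ranges overlapped although CCD was higher in 4 of 4 animals (log2 difference 0.52, SE 0.18, limma adjusted p = 0.0398). It was no longer called in 3 of 4 fits that left out an animal. At 3 h it was not called (1.44, adjusted p = 0.0656).

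Complex II, succinate dehydrogenase, is encoded wholly in the nucleus and also works in the citric acid cycle. Its iron-sulfur subunit Sdhb was lower in CCD at both times, by a small margin (812 ± 51.1 TPM against 980 ± 68.1 TPM at 30 min, -0.27, limma adjusted p = 0.0270, then -0.30, adjusted p = 0.0191). The membrane anchor Sdhc was lower as well (-0.21, adjusted p = 0.0339, then -0.24, adjusted p = 0.0248). Leaving out an animal ended the Sdhb call in 3 of 4 fits and the Sdhc call in 4 of 4, at each time. The other anchor, Sdhd, went the other way at 30 min, with 1148, 1084, 1108 and 1099.7 TPM in CCD against 920.2, 1025, 911 and 973 TPM in cTAL. The groups did not overlap there (0.21, SE 0.07, limma adjusted p = 0.0385), but the call was lost in 4 of 4 fits without 1 animal, the sign flipped with median-of-ratios scaling (-0.11) and with quantile normalization (-0.01), and at 3 h Sdhd was not called (0.12, adjusted p = 0.183). The flavoprotein gene Sdha was called at neither time (-0.17 and -0.01, limma adjusted p = 0.0905 at 30 min).

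In complex III, which passes electrons from ubiquinol to cytochrome c, 3 genes were lower in CCD at both times. Uqcrc2 (ENSRNOG00000036742), a core protein, had CCD values of 444, 371, 413 and 432 TPM at 30 min, beside cTAL values of 641, 622, 547 and 597 TPM (-0.54, SE 0.08, limma adjusted p = 0.00134). Every cTAL value exceeded every CCD value, and the 3 h difference was -0.51 (limma adjusted p = 0.00317). The small subunit Uqcr11 differed by -0.46 and -0.44 (limma adjusted p = 0.00145 and 0.00607), and the other core protein, Uqcrc1, by -0.24 and -0.40 (adjusted p = 0.0174 and 0.0206). At each time the Uqcrc1 call ended in 2 of 4 fits that left out an animal. Uqcrh, the hinge protein, was at -0.09 at 30 min and was not called.

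Uqcrfs1 (ENSRNOG00000018281), the Rieske iron-sulfur protein, was the complex III member called higher in CCD at 30 min, and it varied between animals. CCD held 764, 782, 851 and 851 TPM, whereas cTAL held 208 and 209 TPM in animals 1 and 2 and 549 and 548 TPM in animals 3 and 4. These CCD values are means of library pairs that differed, from 1089.6 and 439 TPM in animal 1 to 957 and 746 TPM in animal 4, and the lowest single CCD library lay below cTAL animals 3 and 4. As pairs the groups did not overlap, and CCD was higher by 1.199 on the log2 scale (SE 0.23, limma adjusted p = 0.00392). At 3 h cTAL held 701, 929.8, 616 and 170.04 TPM against 973, 928, 778 and 794 TPM in CCD, the ranges overlapped, and the difference of 0.72 was not called (adjusted p = 0.146).

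Complex IV reduces oxygen, and its nuclear subunits surround a catalytic core made in the mitochondrion. Cox5b (ENSRNOG00000016660), a zinc-binding matrix-side subunit, had CCD values of 2335, 1828, 1855 and 2004 TPM at 30 min, beside cTAL values of 3050.5, 3135, 3015 and 3299 TPM. No CCD value reached the cTAL range (log2 difference -0.65, SE 0.08, limma adjusted p = 0.000667). At 3 h CCD held 2764, 2505, 2873 and 2346 TPM and cTAL 5132, 4168, 4454 and 3744 TPM (-0.73, SE 0.07, adjusted p = 0.000559). The ubiquitous subunit 6a gene Cox6a1 (ENSRNOG00000001170) showed the same order, with CCD values of 2959, 2421, 2751 and 2753 TPM at 30 min and cTAL values of 3810.4, 3891, 4077 and 4219.7 TPM. Its differences were -0.56 and -0.70 (limma adjusted p = 0.000770 and 0.000922).

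Cox7a2l2, with 2693 ± 266 TPM in CCD against 4336 ± 325 TPM at 30 min, had the lowest value in complex IV there (-0.69, SE 0.10, limma adjusted p = 0.000918; -0.72 at 3 h, adjusted p = 0.000511). No gene named Cox7a2 was in the table. Cox7b differed by -0.61 and -0.60, and both Cox6b1 identifiers by -0.58 and -0.59 at 30 min. Cox4i1, a regulatory subunit that binds ATP, was lower by a small margin at 30 min (-0.27, limma adjusted p = 0.0278, lost in 3 of 4 fits without 1 animal) and by more at 3 h (420 ± 38.8 TPM against 676 ± 49.4 TPM, -0.69, adjusted p = 0.00117). Cox8a, Ndufa4, Cox5a and Cox7a2l, the last a factor in supercomplex assembly, were called at neither time. At 30 min their differences were 0.15, 0.16, 0.46 and -0.14.

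Cox5a, a regulatory matrix-side subunit, also varied between cTAL animals. At 30 min CCD held 1185, 1075, 1160.1 and 1189 TPM and cTAL 589, 612, 1175 and 1148 TPM. At 3 h cTAL sham 4 stood at 553 TPM, and the other 3 at 2236, 2026 and 1792 TPM. The 3 h difference was 0.04 with all 4 animals, and without animal 4 it was -0.36 (SE 0.08, limma adjusted p = 0.0214), a change of sign.

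In complex V the counts differed between the parts of the enzyme. The rotor's c ring is encoded by Atp5mc1, Atp5mc2 and Atp5mc3, whose products differ in the targeting sequence and give the same mature protein. Atp5mc1 (ENSRNOG00000007235) had CCD values of 2379, 1943, 2044 and 2058 TPM at 30 min and cTAL values of 3417, 3215, 3222 and 3011 TPM, with no overlap (-0.62, SE 0.07, limma adjusted p = 0.000314). At 3 h CCD held 3545, 3421, 3982 and 3592 TPM and cTAL 6436, 6035, 5914 and 5379.9 TPM (-0.71, SE 0.08, adjusted p = 0.000898). Atp5mc2 was lower at both times by less (-0.20 and -0.42, limma adjusted p = 0.0349 and 0.00712), with the 30 min call lost in 4 of 4 fits that left out an animal, and Atp5mc3 was lower at 3 h (-0.43, adjusted p = 0.00356) but not called at 30 min (-0.18, adjusted p = 0.0780).

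Genes of the small membrane subunits, which join the enzyme's dimers, were lower in 4 of 4 cases at 30 min (median -0.50) and 3 of 4 at 3 h (median -0.43). Among them Atp5me and Atp5mg differed by -0.53 and -0.51 at 30 min (limma adjusted p = 0.00144 and 0.00159). The peripheral stalk, which holds the catalytic head still, had 0 of 4 called at either time, with medians of -0.03 and -0.17. Atp5po (ENSRNOG00000001991), its oligomycin-sensitivity protein, had CCD values of 1795, 1744, 1757 and 1735 TPM at 30 min, beside cTAL values of 1684, 1856, 1718 and 1764 TPM. The CCD range lay within the cTAL range there, with a difference of 0.00083 (SE 0.07, limma adjusted p = 0.992), and at 3 h it was -0.18 (adjusted p = 0.0607).

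The catalytic head showed small differences. Atp5f1a, the alpha subunit, was lower by -0.29 and -0.37 (limma adjusted p = 0.00621 and 0.0205), and Atp5f1b, the beta subunit, by -0.18 and -0.26 (adjusted p = 0.0400 and 0.0386). Leaving out an animal ended the Atp5f1b call in 4 of 4 fits at 30 min and 3 of 4 at 3 h, and the Atp5f1a call in 3 of 4 at 3 h. The sign for Atp5f1b flipped at 3 h under quantile normalization (0.17). The identifier ENSRNOG00000019223 is no member, since the 30 min table calls it Taf3, but the 3 h table calls it Atp5c1, the gamma subunit. It was lower in CCD at both times (1418 ± 44.5 TPM against 1882 ± 91.7 TPM, -0.41, limma adjusted p = 0.00251, then -0.55, adjusted p = 0.00135). Atp5if1, the inhibitor that blocks reverse running of the enzyme, was higher in CCD at 30 min in 4 of 4 animals, although the ranges overlapped (1928 ± 246 TPM against 1562 ± 268 TPM, 0.31, SE 0.07, limma adjusted p = 0.0109, lost in 1 of 4 fits without 1 animal). Under median-of-ratios scaling its sign flipped (-0.01), and at 3 h it was not called (0.17, adjusted p = 0.200).

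**Figure D2:**
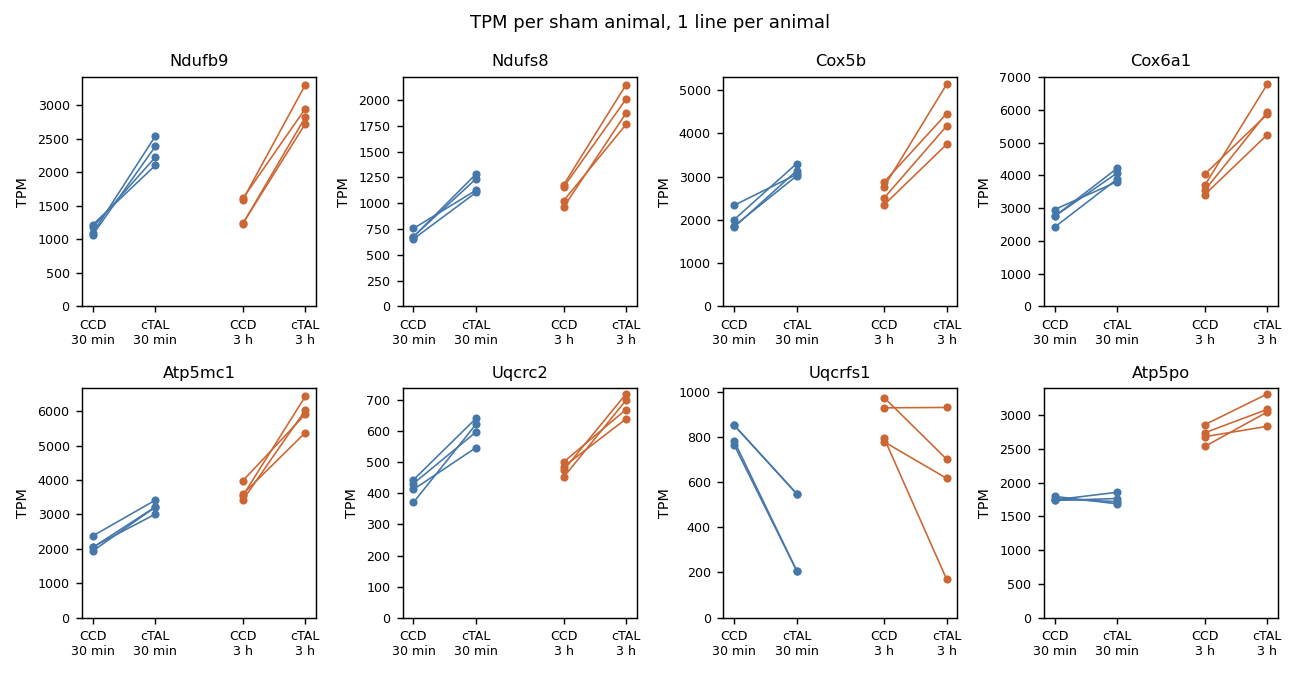
TPM of 8 members in each sham animal, with a line joining CCD and cTAL of the same number (blue 30 min, orange 3 h; vertical axes in TPM from 0). Lines for Ndufb9, Ndufs8, Cox5b, Cox6a1, Atp5mc1 and Uqcrc2 rise to cTAL in all animals, and those for Atp5po at 30 min are nearly flat between 1684 and 1856 TPM. Lines for Uqcrfs1 fall to as little as 170.04 TPM, except in animal 2 at 3 h (928 TPM in CCD and 929.8 TPM in cTAL).

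The sham animals of the 3 h table were other animals than those of the 30 min table and gave a second measurement. Of the 77 members tested at both times, 40 were lower in CCD at both, which is 93.0% of the 43 at 30 min and 90.9% of the 44 at 3 h, and 0 were called in opposite directions. The sign was shared by 70. Over these 77 genes, which share libraries and are not independent, the 30 min and 3 h differences correlated with a Pearson r of 0.81 and a Spearman rho of 0.84. The same shares and correlations were not computed over all genes, so whether the members repeated better than other genes is not known. Ndufs1, Ndufb7 and Atp5mf were lower at 30 min only, and Ndufa6, Ndufa10, Atp5mc3 and Atp5f1d were lower at 3 h only. The difference between times was not tested. Of the 40, 36 had no overlap between segments at either time. The 40 were picked by calls on these same values, so that count adds no separate support. Its share over all genes was not computed.

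**Figure D3:**
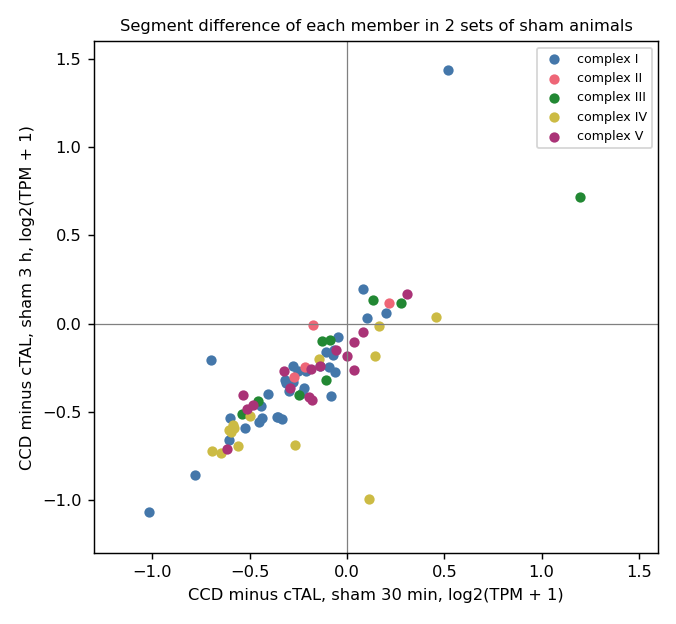
Segment difference of each member in sham animals at 30 min (horizontal) and 3 h (vertical), both CCD minus cTAL of log2(TPM + 1), coloured by complex. The points lie along a rising band (r = 0.81, 77 genes), with Ndufb9 at its lower left end at -1.02 and -1.07 and Uqcrfs1 at the right at 1.199 and 0.72.

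The RNA of other cells also differed between the dissected segments. Macrophage markers were lower in CCD for 6 of 6 tested at each time, with a summed level of 46.9 ± 12.3 TPM against 227 ± 109 TPM in cTAL at 30 min. At 3 h it was 40.3 ± 19.6 TPM against 272 ± 98.0 TPM. Endothelial markers were lower in CCD for 4 of 5 at 30 min and 3 of 4 at 3 h. Proximal tubule markers were lower for 1 of 6 and higher for 0 at each time. They summed to 376 ± 234 TPM against 1006 ± 542 TPM at 30 min, then 334 ± 234 TPM against 789 ± 250.1 TPM. Distal convoluted and connecting tubule markers were higher for 2 of 2 (1686 ± 2354 TPM against 113 ± 114 TPM), then 1 of 2. The 1 smooth muscle and fibroblast marker tested was lower each time, and 0 of 3 red cell markers were called. The part of these in the subunit result was not tested. Thick limb markers in sham CCD summed to 178 ± 218 TPM at 30 min and 2162 ± 2330 TPM at 3 h, against 56540 ± 12773 and 43739 ± 11747 TPM in cTAL. With the CCD libraries above 5000 TPM of Umod left out, 46 members were lower at 3 h and 2 were higher. Over all genes 1077 were lower and 2557 higher in that fit. In these bulk samples fewer cells of a type and less RNA per cell cannot be told apart.

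Transcripts of the subunits made inside the mitochondrion were also lower in CCD. Of the 13, 12 were lower in CCD at 30 min (median -0.57) and 13 at 3 h (median -0.83), all but Mt-nd6 at 30 min. Mt-co3, a core subunit of complex IV, differed by -0.91 at each time, and Mt-nd3, a core subunit of complex I, by -0.77 and -1.11. Their summed level was 15.7% ± 2.15 of all TPM in sham CCD and 24.0% ± 2.45 in sham cTAL at 30 min, and 6.04% ± 0.91 and 10.9% ± 1.56 at 3 h. Because TPM sum to a fixed total, a larger mitochondrial share lowers every other gene's value. With TPM rescaled to nuclear genes, 52 members were lower at each time, and the member medians were -0.39 and -0.40. The calls over all genes moved as well. At 30 min 1991 were lower in place of 1543 and 4014 higher in place of 4835. At 3 h 1199 were lower in place of 1088 and 2493 higher in place of 2914.

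**Figure D4:**
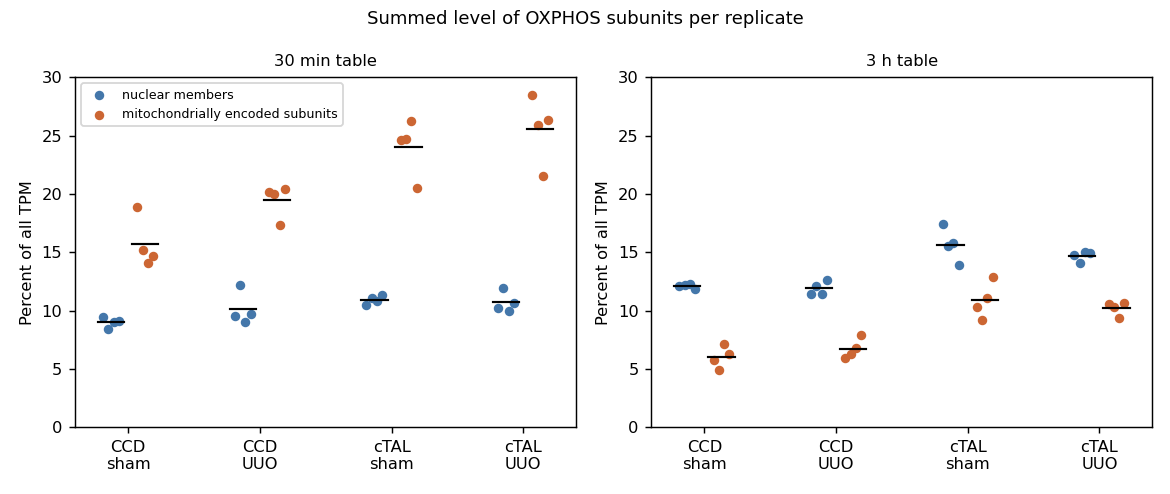
Summed level, as a percentage of all TPM in the library, of the 88 nuclear members (blue) and the mitochondrially encoded subunits (orange) in each replicate, with bars at the mean of 4, by segment, arm and time. Nuclear members average 8.999% in sham CCD and 10.9% in sham cTAL at 30 min and 12.1% and 15.7% at 3 h.

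The other lists below are set beside the all-gene shares, 41.8% higher and 13.3% lower at 30 min and 27.9% and 10.4% at 3 h, and the all-gene medians of 0.29 and 0.30, which depend on the scaling. Of 41 factors that assemble the complexes, 13 were higher and 7 lower in CCD at 30 min (median 0.01), and of 42 at 3 h, 6 were higher and 2 lower (median 0.01). Cox18, which inserts a mitochondrial subunit of complex IV into the membrane, was higher in CCD by 1.28 at 30 min, and Cox11, a copper chaperone for complex IV, by 1.18 and then 0.96. Coa3, another complex IV factor, held 692 ± 30.8 TPM in CCD against 409 ± 23.1 TPM in cTAL at 30 min (log2 difference 0.76; 0.67 at 3 h). Among ubiquinone, cytochrome c and related genes, 6 of 16 were higher and 3 lower at 30 min. Cyc1, the cytochrome of complex III that the symbol rule left out, was higher in CCD by 1.28 (721 ± 41.6 TPM against 303 ± 135 TPM, limma adjusted p = 0.00114). At 3 h it was not called (0.91, adjusted p = 0.0904). Cycs, cytochrome c itself, was higher by 0.52 at 30 min (limma adjusted p = 0.0176) and stood at -0.10 at 3 h (adjusted p = 0.336).

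Of 23 genes of the citric acid cycle and pyruvate entry, which feed the chain, 13 were lower in CCD and 2 higher at 30 min (median -0.36, against 13.3% and 41.8% of all genes), and 8 were lower and 1 higher at 3 h (median -0.18, against 10.4% and 27.9%). Idh2, the mitochondrial NADP-linked isocitrate dehydrogenase, held 1001 ± 83.0 TPM in CCD against 2069 ± 523 TPM in cTAL at 30 min (-1.02; -1.07 at 3 h). Pdk1, a kinase that switches off pyruvate dehydrogenase, was higher in CCD (1.59 and 0.76). Of 14 fatty acid oxidation genes, 8 and 7 were lower and 3 and 2 higher. Hadh, a beta-oxidation dehydrogenase, showed the largest difference (148 ± 15.99 TPM against 416 ± 22.2 TPM at 30 min, -1.49; -1.64 at 3 h).

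Of 18 regulators of mitochondrial biogenesis, 5 were higher and 5 lower in CCD at 30 min (median -0.03, beside 41.8% and 13.3% of all genes), and of 16 at 3 h, 3 were higher and 1 lower (median 0.16, beside 27.9% and 10.4%). Ppargc1a, the coactivator PGC-1 alpha, was lower in CCD at 30 min (66.4 ± 9.84 TPM against 97.1 ± 13.0 TPM, -0.58, limma adjusted p = 0.00765) and not called at 3 h (-0.12, adjusted p = 0.707). Tfam, which packages and transcribes mitochondrial DNA, was called at neither time (-0.02 and -0.31). Esrrb, an oestrogen-related receptor, was lower in CCD by -1.68 at 30 min, and its relative Esrra was higher by 1.25. Of 12 further listed genes, among them carriers, porins and creatine kinase, 4 were higher and 4 lower at each time. The uncoupling protein gene Ucp2 was higher in CCD by 2.71 and 2.21, and the ATP/ADP carrier gene Slc25a4 was lower by -0.60 and -0.76.

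The comparison of UUO with sham within each segment asked how early obstruction changed the subunit transcripts. At 30 min 0 of 78 members tested were called in either direction in CCD, against 0.00887% of all genes higher and 0.0177% lower, and 0 of 78 in cTAL, against 0.00910% higher and 0% lower. At an unadjusted p under 0.05 limma gave 7 of 78 members in CCD, against 1775 of all 11274 genes tested. In cTAL it gave 0 of 78, against 250 of 10993. With library 1 of each CCD number alone, the calls over all genes in CCD at 30 min were 7 higher and 949 lower, in place of 1 and 2. At 3 h 2 of 79 members were lower in CCD, against 8.18% of all genes, and 0 were higher, against 5.02%. In cTAL 3 of 80 were lower, against 7.64%, and 0 were higher, against 4.06%. All 5 calls were of complex I genes. Over all genes the split of calls changed with median-of-ratios scaling, from 522 higher and 850 lower to 705 and 435 in CCD and from 407 and 766 to 520 and 405 in cTAL.

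**Figure D5:**
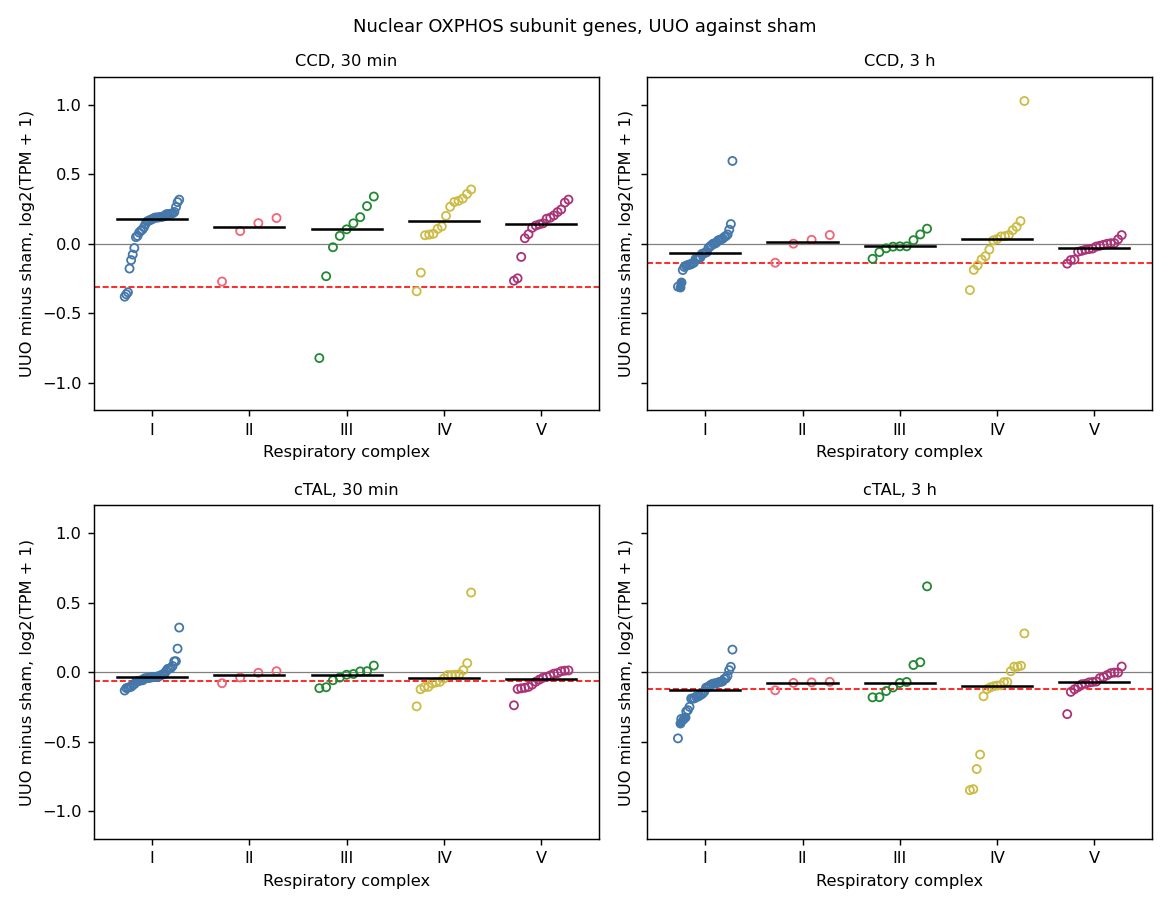
Difference between UUO and sham (vertical axis, UUO minus sham of log2(TPM + 1)) for every member tested, sorted within complexes I to V, in CCD and cTAL at 30 min and 3 h. Filled points passed limma's adjusted p of 0.05 (2 in CCD and 3 in cTAL, all complex I at 3 h), black bars are complex medians and the red dashed line is the median of all genes tested; in CCD at 30 min the complex bars lie between 0.10 and 0.18 while the red line is at -0.31.

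In CCD at 3 h Ndufb10 (ENSRNOG00000014568), an accessory subunit of the membrane arm, held 1358, 1291, 1334 and 1286 TPM in sham and 983, 1042, 1109 and 1129 TPM in UUO. The arms did not overlap (log2 change -0.31, SE 0.07, limma adjusted p = 0.0268). Ndufa8 (ENSRNOG00000005668), an accessory subunit imported to the intermembrane space, held 749.8, 725, 766 and 734 TPM in sham and 598, 628, 578 and 658 TPM in UUO (-0.27, SE 0.07, adjusted p = 0.0378). Again no UUO value reached the sham range. With the 3 libraries above 5000 TPM of Umod left out, both stayed called (-0.35, limma adjusted p = 0.0242, and -0.30, adjusted p = 0.0316). Leaving out each replicate in turn ended the Ndufb10 call in 5 of 8 fits and the Ndufa8 call in 7 of 8.

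In cTAL at 3 h Ndufs8, the core subunit described above, held 2146, 1872, 2007 and 1762 TPM in sham and 1536, 1468, 1624 and 1589 TPM in UUO (-0.32, SE 0.09, limma adjusted p = 0.0427). Ndufs7, a core subunit with the last iron-sulfur cluster before the quinone, held 865, 776, 704 and 669.9 TPM in sham and 626, 584, 566 and 549.6 TPM in UUO (-0.37, SE 0.10, adjusted p = 0.0483). Ndufa8 held 1056, 1040.2, 940.1 and 884 TPM in sham and 781, 739, 847 and 737 TPM in UUO (-0.34, SE 0.10, adjusted p = 0.0492). In all 3 genes, which were picked by calls on these same values, the arms did not overlap. The calls ended in 7 of 8 fits for Ndufs8 and in 8 of 8 for Ndufs7 and Ndufa8 when a replicate was left out, with adjusted p from 0.0456 to 0.137, and a fit with the replicate number as a block called 0 members in either segment. Ndufb10, called in CCD, changed by -0.34 in cTAL without passing (adjusted p = 0.0771).

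The other complexes gave 0 calls at 3 h. In cTAL the medians were -0.13, -0.08, -0.08, -0.10 and -0.07 for complexes I to V, beside -0.12 for all genes. In CCD they were -0.06, 0.01, -0.02, 0.03 and -0.03, beside -0.14. Over all members in CCD the median was -0.02, and with the 3 high-Umod libraries left out it was -0.08 beside -0.09 over all genes. The summed level of all members in CCD at 3 h was 11.9% ± 0.58 of TPM in UUO and 12.1% ± 0.19 in sham, and in cTAL it was 14.7% ± 0.42 and 15.7% ± 1.43. With median-of-ratios scaling the member medians at 3 h were 0.13 in CCD and 0.07 in cTAL, so the sign of these small medians depended on the scaling.

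In CCD at 30 min 62 of 78 members had a positive change, with a median of 0.15 beside -0.31 over all genes, and with 0 calls. The share of all genes with a positive change was not computed. Both medians depended on the scaling, at 0.14 beside 0.03 with quantile normalization and 0.44 beside -0.08 with median-of-ratios. The members with the smallest p in complexes III and I were Uqcrb (ENSRNOG00000032204) and Ndufb8. Uqcrb held 1480.2, 1372, 1513 and 1579.6 TPM in sham and 1825, 2178, 1718 and 1842 TPM in UUO (0.34, SE 0.11, limma adjusted p = 0.256). Ndufb8, a membrane arm subunit, held 1147, 1020.3, 1032 and 1019 TPM in sham and 1258, 1435, 1209.7 and 1318 TPM in UUO (0.30, adjusted p = 0.271). The arms did not overlap in either gene, though both were picked by their p on these same values. Number 2 was the highest UUO value in both. With CCD UUO number 2 represented by its library 1 alone, the member median was 0.10 beside -0.17 over all genes, and 0 members were called. In cTAL at 30 min the median was -0.04 beside -0.07 over all genes, and all adjusted p were near 1.00.

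A direct test of whether the UUO change differed between segments called 0 of 80 members at 30 min, against 0% of all genes in each direction, and 0 of 81 at 3 h, against 0.561% higher and 0.535% lower. At 30 min the median difference of changes, CCD minus cTAL, was 0.19 beside -0.23 over all genes. It was 0.17 beside 0.04 with quantile normalization and 0.40 beside -0.07 with median-of-ratios scaling. Of all 12276 genes tested, 1802 passed an unadjusted p of 0.05 in limma, and of the 80 members 23 did. The smallest adjusted p was 0.0792, for Cox6c (0.39). With CCD UUO number 2 from its library 1 alone the median was 0.14 beside -0.10 over all genes. That fit called 139 genes lower and 0 higher over all genes. With library 1 of each CCD number alone 799 were lower and 9 higher, and with log2(TPM + 5) 298 and 1. The all-gene share at 30 min thus depended on the setting. At 3 h the median was 0.07 beside 0.01 (0.02 beside 0.04 without the high-Umod libraries). There 0 of 81 members passed an unadjusted p of 0.05 in limma, against 1636 of all 11412 genes tested.

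Some assembly factor genes were called lower at 3 h. In CCD 7 of 42 were lower in UUO, against 8.18% of all genes, and 0 higher (median -0.23, beside -0.14). In cTAL 9 of 42 were lower, against 7.64%, and 0 higher (median -0.26, beside -0.12). Ndufaf7, a methyltransferase needed for complex I assembly, fell from 39.7 ± 1.93 TPM to 18.1 ± 2.78 TPM in CCD (log2 change -1.10, limma adjusted p = 0.00379) and also fell in cTAL (-0.77, adjusted p = 0.0307). Bcs1l, which inserts the Rieske protein into complex III, fell from 17.2 ± 1.74 TPM to 6.96 ± 3.36 TPM in CCD (-1.31, adjusted p = 0.0255) and from 17.5 ± 4.01 TPM to 4.96 ± 3.18 TPM in cTAL (-1.85, adjusted p = 0.0374). Coa3 fell from 1248 ± 53.8 TPM to 838 ± 144 TPM in CCD (-0.60, adjusted p = 0.0151) and by 0.50 on the log2 scale in cTAL (adjusted p = 0.0203).

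The 13 mitochondrially encoded subunits gave 0 calls in any UUO comparison, with medians of 0.30 in CCD and 0.11 in cTAL at 30 min and 0.11 and -0.07 at 3 h. In CCD at 3 h 5.02% of all genes were called higher and 8.18% lower. There Cpt1a, the carnitine transferase that admits fatty acids to mitochondria, rose by 0.72 and Acadl, an acyl-CoA dehydrogenase, by 0.62. Pdk2 was the citric acid cycle list's single call there and fell by 0.58. In cTAL at 3 h 4.06% of all genes were called higher and 7.64% lower. Cycs rose there from 1140.5 ± 68.6 TPM to 1449 ± 123 TPM (0.34, limma adjusted p = 0.0414). Of 14 biogenesis genes in cTAL at 3 h, Nrf1, the factor of the first motif, rose from 7.69 ± 1.88 TPM to 16.6 ± 1.63 TPM (1.04, limma adjusted p = 0.0231). Tfam fell from 108 ± 21.6 TPM to 64.8 ± 8.18 TPM (-0.72, adjusted p = 0.0268). Ppargc1a was called in none of the 4 UUO comparisons (-0.51 and 0.08 in CCD and -0.10 and 0.18 in cTAL, at 30 min and 3 h). At 30 min all the lists around the subunits gave 0 calls in both segments.

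Markers of other cells moved with UUO at 3 h beside the complex I calls. In CCD 3 of 7 proximal tubule markers were higher (sum 1649 ± 912 TPM against 334 ± 234 TPM in sham), 4 of 4 red cell markers were higher (5387 ± 2966 TPM against 614 ± 597 TPM), 4 of 6 macrophage markers were higher (97.6 ± 14.7 TPM against 40.3 ± 19.6 TPM), and 5 of 8 principal cell markers were lower (8427 ± 2009 TPM against 16830 ± 1236 TPM). Of the other lists, 1 of 8 intercalated cell markers was lower, and 1 of 2 distal convoluted and connecting tubule markers and the 1 smooth muscle and fibroblast marker tested were higher. In cTAL 4 of 7 proximal tubule markers were higher (2105 ± 709 TPM against 789 ± 250.1 TPM), 3 of 6 macrophage markers were lower (144 ± 53.8 TPM against 272 ± 98.0 TPM), and 3 of 4 endothelial markers were lower (65.2 ± 17.7 TPM against 203 ± 132 TPM). Among the rest, 1 of 5 thick limb, 1 of 6 principal cell and 1 of 6 intercalated cell markers were lower. The part of these in the calls was not tested. At 30 min 0 markers were called in either segment.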

How the data were processed

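RNA from microdissected tubules was amplified as SMARTer V4 complementary DNA and made into Nextera XT libraries, per the labels' protocols. Reads were processed with STAR 2.7.3 and RSEM 1.3.3 on the Rnor_6.0 build, per the submitters' processing notes, and the authors deposited the 30 min and 3 h values as TPM in files of their own. The unit does not retain depth, so it is unknown, and no counting interval is given.

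Values were taken as log2(TPM + 1), and the pair of CCD libraries with the same number gave 1 replicate, their mean. Printed CCD values are means of the 2 libraries in TPM, and fitted differences come from the log2 scale, which understates changes of low genes. Genes that reached 1 TPM in 4 or more replicates were fitted in limma 3.58.1 (R 4.3.3, eBayes with a trend), with Benjamini-Hochberg adjustment over all genes tested and calls at an adjusted p under 0.05. Arms were compared unpaired, 4 against 4. Segments were compared through CCD minus cTAL differences within each numbered sham animal, and the segment difference in UUO change through the same differences, UUO against sham. The fits were tested on simulated data. Figures used Python 3.11.15, pandas 2.3.3 and matplotlib 3.10.9. Nothing states that replicates came from separate litters or days, and p-values measure the spread between these samples.

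Deviations of same-numbered sham and UUO replicates correlated weakly in CCD at 30 min, at 0.11 to 0.23. UUO number 3 there correlated best with a sham replicate of another number. Pairing was thus not settled, the reported fit was unpaired, and a fit with the number as a block also called 0 members. In the other arm comparisons the same-numbered correlations ran from -0.23 to 0.18. Within sham animals the segments correlated at 0.27 to 0.40 at 30 min and 0.06 to 0.21 at 3 h.

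The members, role groups and gene lists were chosen with earlier results of these data known. Named genes were up to 3 called members per complex, direction and comparison with the largest change and at least 5 TPM in a group, otherwise the member with the smallest p, plus well-known subunits, up to 3 called genes per list, and Ppargc1a, Tfam, Cyc1 and Cycs. Ndufs7, Ndufb10 in cTAL, Atp5po, Ndufs6, Cox6c, Cox6b1, Cox7b2, Cox8b and ENSRNOG00000019223 were named after their values were seen, as were genes named for a name change, a promoter or a difference between the times. Promoters came from RefSeq on GRCr8, a build other than the authors', for names and sequence alone. Alternatives were other pseudocounts (0.1 and 5), filters (none and 5 TPM), scalings (median-of-ratios, quantile, nuclear genes), single CCD libraries, the replicate block and leaving out each replicate.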

Additional observations from a re-analysis of the deposited data

Results flagged for a closer look

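Among 248 groups of 4 replicates examined, 17 had 1 replicate far from the other 3, measured as its gap to the nearest of them divided by the whole range; chance alone gives about 1 in 20. In CCD UUO at 30 min number 2, which includes the library with the fewest genes, stood far above the others in 6 of the 24 members examined in this way. The gap shares were 0.856 for Ndufa8 (418 TPM, others 318 to 333), 0.867 for Atp5mc1 (2890.03 TPM, others 1983 to 2103), 0.938 for Sdhb (1098 TPM, others 865 to 879), 0.944 for Ndufb10 (879.9 TPM, others 687 to 698), 0.848 for Ndufs8 (956 TPM, others 678 to 720.5) and 0.858 for Atp5md (2082 TPM, others 1176 to 1304). In the same group the mitochondrially encoded subunits had a low number 3 (gap share 0.872, 173065 TPM summed, others 199868 to 203791).

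In sham CCD at 30 min Atp5me was low in number 2 (0.912, 1386 TPM, others 1685 to 1714) and Ndufb8 was high in number 1 (0.899, 1147 TPM, others 1019 to 1032). In sham cTAL at 30 min Sdhc was low in number 3 (0.837, 1347 TPM, others 1603 to 1653). In cTAL UUO at 30 min the complex I sum was high in number 2 (0.897, 30631 TPM, others 26155 to 26615).

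At 3 h the complex III sum was low in CCD UUO number 1 (0.872, 9465 TPM, others 10502 to 10654), and Ndufs8 was high in CCD UUO number 4 (0.839, 1107 TPM, others 878 to 915). That replicate includes the library with 18235 TPM of Umod. In cTAL UUO Atp5me was low in number 2 (0.891, 4190.4 TPM, others 4672 to 4731) and Cox6a1 high in number 1 (0.945, 5957 TPM, others 5529 to 5552). In sham cTAL Ndufb10 was high in number 1 (0.924, 1722 TPM, others 1363 to 1390.2), and the second Ndufv3 identifier was at 8.38 TPM in number 2 and listed at 0 in the others (gap share 1.0).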

How the results depend on the processing

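Members lower in CCD than cTAL numbered 43 at 30 min and 44 at 3 h. Leaving out a sham animal gave 29 to 42 and 30 to 42, and the other settings but the scalings gave 34 to 43 and 35 to 46. The 4 called higher at 30 min became 2 with no filter, under quantile normalization, with library 1 alone and with no replicate block, 1 under median-of-ratios scaling and with TPM rescaled to nuclear genes, and 2 without sham animal 1 or 4. The 0 called higher at 3 h became 1 with log2(TPM + 5), 1 with library 2 alone, 0 to 1 on leaving out an animal (1 without animal 4) and 2 with the libraries above 5000 TPM of Umod left out, a setting chosen after seeing the data. Signs reversed for Sdhd at 30 min (-0.11 with median-of-ratios, -0.00712 with quantile), Atp5if1 at 30 min (-0.011 with median-of-ratios), Atp5f1b at 3 h (0.17 with quantile) and Cox5a at 3 h (-0.36 without animal 4, up to 0.21 without animal 1).

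The UUO calls at 3 h changed with several settings. In CCD the 2 became 1 with no filter and 0 with median-of-ratios scaling and with either CCD library alone, and 0 to 2 on leaving out a replicate (0 without any 1 of the 4 sham or without UUO 2, 1 without UUO 3). In cTAL the 3 became 1 with log2(TPM + 0.1), 0 with no filter, 0 with median-of-ratios, 8 with quantile normalization, and 0 to 1 on leaving out a replicate (1 without sham 1 or sham 4, 0 without any other). Without UUO animal 3 the segment difference in UUO change at 30 min gave 1 member in place of 0 (range 0 to 1). The cause was not tested for any of these. With the replicate number as a block, 0 members were called in CCD and 0 in cTAL at 3 h, and calls over all genes fell to 388 higher and 381 lower in CCD and 252 and 328 in cTAL; the numbers are not shown to pair those samples. It changed no other call of members.

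Of the counts recomputed, 237 stayed within 1.5 times and 37 did not; of the values for single genes, 3668 kept direction and side of the threshold, 133 lost the call, 27 gained it and 5 reversed. TPM carry no depth, so the smallest detectable level is unknown.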

Other observations

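Uqcrfs1, Cox5a and Cyc1 varied widely between replicates, a set singled out after its values were seen. In CCD UUO at 30 min numbers 1 to 4 held 139, 512, 669 and 846 TPM of Uqcrfs1, 388, 1242, 1129 and 1401 TPM of Cox5a, and 124, 374, 514 and 667 TPM of Cyc1. Number 1 was the lowest for all 3 genes. In cTAL UUO at 30 min Uqcrfs1 stood at 161, 462, 179 and 943 TPM, Cox5a at 472, 1081, 535 and 1451 TPM, and Cyc1 at 136, 368, 157 and 754 TPM, with numbers 1 and 3 low and number 4 high in each.

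The 3 h cTAL samples showed 2 such low replicates. Sham number 4 held 170.04 TPM of Uqcrfs1, 553 TPM of Cox5a and 159.6 TPM of Cyc1, where the other sham numbers held 616 to 929.8, 1792 to 2236 and 623 to 911 TPM. UUO number 1 held 318 TPM of Uqcrfs1, 1383 TPM of Cox5a and 286 TPM of Cyc1, where the other UUO numbers held 985 to 1186, 1871 to 1980.1 and 964 to 1275 TPM. Cycs did not share the pattern at 3 h, with 1054 to 1221 TPM in cTAL sham and 1304 to 1553 TPM in cTAL UUO. These genes were called in none of the UUO comparisons of the report, apart from Cycs in cTAL at 3 h.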
